A study of Mus musculus with 2 samples.

Results

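The genes described here are 8 members of the epidermal growth factor (EGF) family, 5 encoding ligands (Hbegf, Areg, Ereg, Btc and Tgfa) and 3 encoding receptors (Egfr, Erbb2 and Erbb3), out of 23282 rows of gene symbols measured. They were taken by symbol, and the list was chosen by symbol with the deposited values of both libraries, read numbers and differences, already known, so the differences between the libraries are given as a description and no test is made of them. Naïve CD4+ T cells of wild-type (WT) C57BL/6 mice, females 7 to 10 weeks old, were isolated from spleen and activated through CD3 and CD28 with TGF-β1, IL-2 and antibodies that block IFN-γ and IL-4. They were kept under these Treg-inducing conditions for 1 day, either with the solvent DMSO (control) or with 10 μM Tubastatin A (TSA), an inhibitor of the deacetylase HDAC6. One library was sequenced per culture, 1 control and 1 TSA. No value below therefore has a replicate check, and a difference compares these 2 libraries, not the conditions. The recovered reads summed to 10846166 (control) and 10432628 (TSA).

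EGF family ligands are made as membrane proteins, and cutting by metalloproteases of the ADAM family sets their extracellular part free. The ligands bind receptor tyrosine kinases that act in pairs, and receptor activation feeds the Ras-ERK and PI3K-AKT pathways. Heparin-binding EGF-like growth factor, the product of Hbegf, binds EGFR and ErbB4. Amphiregulin, the product of Areg, is known as a tissue-repair factor that Treg cells and innate lymphoid cells can release. T cells are not usually counted among the cells rich in ErbB receptors, which are best known from epithelia.

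Hbegf was the member with substantial reads, and it was much lower with TSA. The control library held 336 reads of it and the TSA library 68. Scaled to library totals these were a CPM of 31.0 and 6.52, where CPM is reads relative to the library total. The counting intervals of the reads (exact Poisson, 95%) ran from 301 to 374 for control and from 52.8 to 86.2 for TSA, and did not overlap. On the deposited scale, log2 of a normalized count plus 1, the values were 8.40 and 6.10. The log2 difference, TSA minus control, was -2.30, a fold change of 0.203. The exact Clopper-Pearson 95% interval of that fold change was 0.152 to 0.261. All intervals given here cover counting error only, because there is 1 library per condition. PCR copies of a molecule cannot be told from separate molecules, so the intervals may be too narrow even for counting error. In bulk RNA fewer cells expressing a gene and less of its RNA per cell cannot be told apart. In the GENCODE M21 annotation of GRCm38 (mm10, the build named in the submitters' processing notes) Hbegf is a protein-coding gene on the minus strand of chromosome 18, from 36504927 to 36515805, with up to 6 exons in its 3 annotated transcripts. No other annotated gene overlaps it.

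A gene was counted as changed when it differed by more than 2-fold and had at least 10 reads in at least 1 library. Of the 8 members, 1 had that many reads, Hbegf, and it passed 2-fold downwards. Among all 12164 genes with that many reads, 383 were lower past 2-fold, or 3.15%, and 1400 were higher, or 11.5%. Among the 8188 of these whose normalized counts averaged 100 or more, the range in which Hbegf lies, 107 were lower past 2-fold, or 1.31%. In that range 1 gene had a lower log2 difference than Hbegf. Over all tested genes 54 had a lower one. In the order of reads, Hbegf had 42.0% of the tested genes above it under control conditions and 73.8% with TSA.

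**Figure D1:**
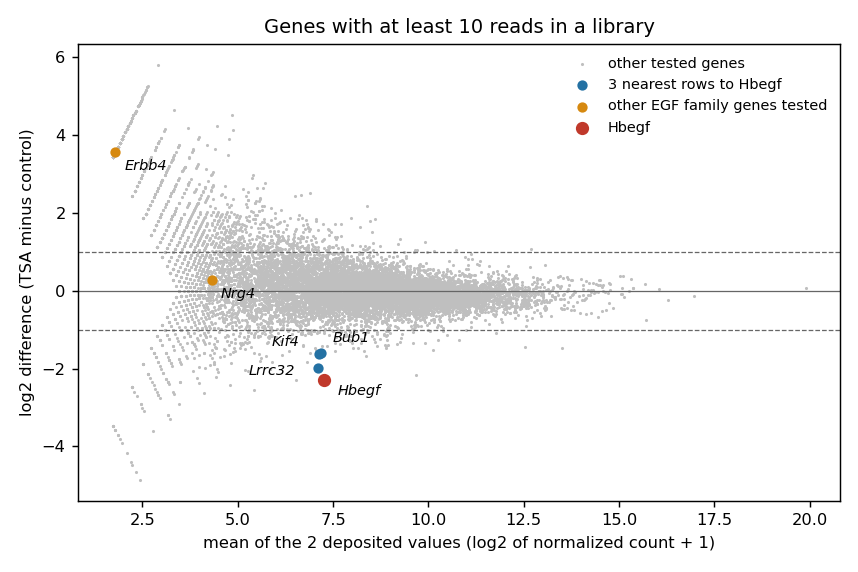
Each point is a tested gene (10 reads or more in either library), with the mean of its 2 deposited log2 values on the horizontal axis and its log2 difference (TSA minus control) on the vertical axis; dashed lines mark 2-fold. Hbegf, at -2.30, lies below nearly all genes of its level, beside the 3 genes nearest to it, while Nrg4 lies near 0 and Erbb4, at the left edge with 11 TSA reads, lies high.

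The other 4 ligand members were at the limit of what the depth could show, which was set at 3 reads, a CPM of 0.277 (control) and 0.288 (TSA). Areg had 2 reads in each library. Btc, which encodes betacellulin, had 1 control read and no TSA read. Ereg, which encodes epiregulin, and Tgfa, which encodes transforming growth factor α, had no read in either. All 4 lay at or under 3 reads with and without TSA. For such counts a fold change would be empty, and a difference was not detectable at this depth. Together they had 3 control and 2 TSA reads against 336 and 68 of Hbegf. Hbegf thus held 99.1% of the reads of the 5 ligand members under control conditions and 97.1% with TSA. The QuantSeq kit reads the 3′ end of polyadenylated transcripts, so that long and short transcripts give similar numbers of reads and these numbers can be set side by side. Areg, Ereg and Btc lie on chromosome 5 within the same stretch, starting at 91139599, 91074622 and 91357261, together with Epgn, which encodes epigen and starts at 91027464. Epgn had no control read and 3 TSA reads, so that no gene of this stretch named here passed 3 reads in either library.

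The 3 receptor members also had few reads, and did not share a direction. Egfr had 4 control reads and no TSA read. With TSA set at 3 reads this is 1.35-fold lower, a figure that leaves out the counting error of the 4 reads. The counting interval of the fold change, from 0 to 1.5, included no change. Erbb2, which encodes the receptor that binds no ligand of its own and pairs with the others, had 7 and 9 reads, a fold change of 1.24 with an interval of 0.422 to 4.02, which spans no change. Erbb3, which encodes a receptor with very weak kinase activity, had no control read and 6 TSA reads. With the control set at 3 reads this is 1.98-fold higher, again without counting error. The counting interval of its fold change began at 1.17 and had no upper bound. Over all 23282 rows, 9588 had no control read and 8288 no TSA read. More rows therefore had reads in the TSA library alone than in the control library alone. Summed, the 3 receptors had 11 control and 15 TSA reads, a fold change of 1.35 with an interval of 0.580 to 3.25. None of the 3 reached the 10 reads required for testing, with Erbb2 at 9 just outside. Erbb2 overlaps Mien1, a protein-coding gene of the opposite strand, and Egfr overlaps an antisense gene. Whether the authors counted by strand is not given in the sources used here, so reads of such overlapping genes may not be separable.

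**Figure D2:**
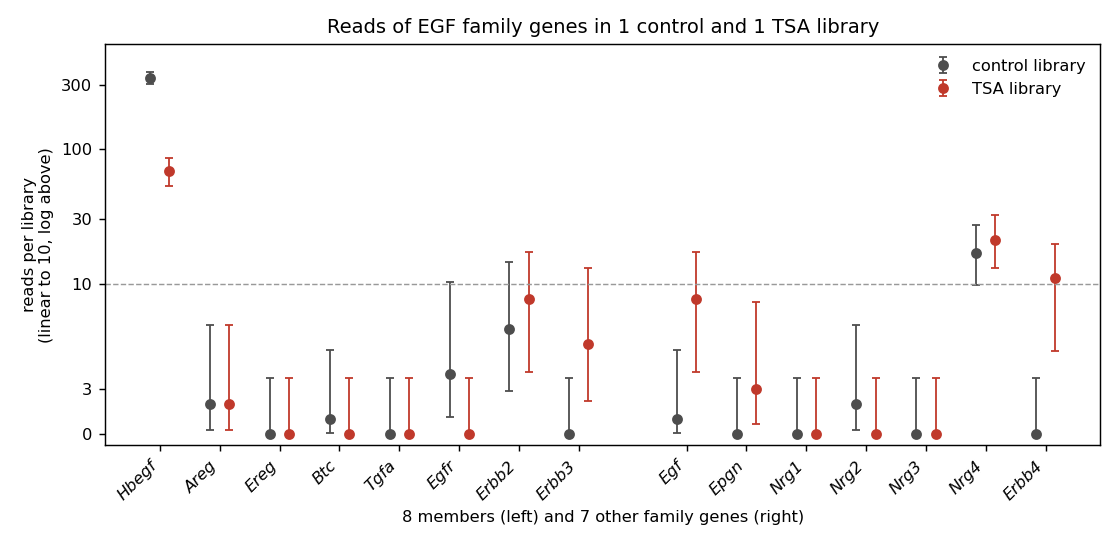
Reads of the 8 members and of 7 other EGF family genes in the control library (grey) and the TSA library (red); the vertical axis is linear up to 10 reads and logarithmic above, bars are exact Poisson 95% intervals, and the dashed line marks the 10 reads required for testing. Hbegf, with 336 and 68 reads, stands far above the family, of which Nrg4 and Erbb4 also reach the line.

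Of the 7 family genes that are not members, 2 could be tested. Nrg4, which encodes the ErbB4 ligand neuregulin 4, had 17 control and 21 TSA reads, a fold change of 1.21 with an interval of 0.615 to 2.47, so that its direction was not resolved. It overlaps Fbxo22 on the opposite strand. Erbb4, the other receptor that binds the product of Hbegf, had no control read and 11 TSA reads. It was 3.63-fold higher with the control set at 3 reads, and its counting interval began at 2.49. It was tested through its TSA reads alone, and a gene with 10 TSA reads and no control read passes 2-fold by construction, so nothing is read from that call. Egf had 1 and 9 reads, a ratio with an interval of 1.24 to 391. Nrg2 had 2 and 0 reads, and Nrg1 and Nrg3 had none. The receptors able to bind the Hbegf product, Egfr and Erbb4, thus had 4 and 0 control reads and 0 and 11 TSA reads, all far below the 336 and 68 reads of the ligand.

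The lists of genes around these receptors and ligands were drawn up by role. Ligand shedding was represented by 11 genes of the ADAM proteases, the iRhoms that guide ADAM17, a rhomboid protease and the inhibitor Timp3. Of these, 8 were tested, 1 was higher past 2-fold, a share close to the 11.5% of all tested genes, and none lower. Their median log2 difference was 0.59, beside 0.015 over all tested genes. The gene past 2-fold was Adam8, a leukocyte metalloprotease, with 9 and 23 reads, a fold change of 2.38 with an interval of 1.13 to 6.21. It was tested through its TSA reads alone, and no shedding gene passed 2-fold with 10 reads required in both libraries or with a pseudocount of 5, while 3 did with upper-quartile scaling. The tested genes of the list with the most control reads were Adam19, with 1170 and 1263 reads and a fold change of 1.07 (0.987 to 1.16), and Adam10, with 872 and 751 reads and a fold change of 0.853 (0.773 to 0.941). For Adam17, the protease best known for releasing this ligand, named for that role, the reads were 707 and 684 and the fold change 0.958 (0.861 to 1.07). The direction of Adam17 turned with total-read scaling, to a log2 difference of 0.0080. Adam12, named for the same role after its values were seen, had 9 control reads and no TSA read, too few for testing. It was 3.03-fold lower with TSA set at 3 reads, and the counting interval of its fold change ran from 0 to 0.502. Adam15, named after its values were seen, had 316 and 586 reads and a fold change of 1.83 (1.60 to 2.11). Rhbdf1 and Rhbdf2, the iRhom genes, also named for their role, had 26 and 45 reads and 22 and 39 reads. Their fold changes were 1.69 (1.03 to 2.89) and 1.72 (1.01 to 3.11), short of 2-fold.

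Adaptors and kinases that carry the signal of these receptors, and of the T cell receptor as well, mostly differed by less than 2-fold, in both directions. Of 23 genes, 22 were tested, none was higher past 2-fold and 1 was lower, beside 11.5% and 3.15% of all tested genes, with a median log2 difference of -0.0040. Over all 12164 tested genes the interval lay wholly above no change for 3416 and wholly below it for 3407. In this list the numbers were 5 and 6 genes. Among these, named after their values were seen, Mapk3, which encodes the kinase ERK1, had a fold change of 1.51 (1.33 to 1.72) and Sos2, a Ras exchange factor gene, of 1.46 (1.25 to 1.71). On the lower side Map2k2, which encodes the ERK kinase MEK2, had a fold change of 0.766 (0.703 to 0.834). The lower gene was Gab2, a docking protein, with 11 and 4 reads, and its interval of 0.0836 to 1.22 included no change. It no longer passed with a pseudocount of 5 or with 10 reads required in both libraries. The gene with the most control reads was Akt1, which encodes a kinase of the PI3K pathway, with 3672 and 3698 reads and a fold change of 0.997 (0.952 to 1.04). Its log2 difference was -0.0040 as deposited and turned positive, 0.066, with total-read scaling.

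Of 12 genes that restrain the receptors, by ubiquitin, phosphatase or direct inhibition, all were tested. None passed 2-fold, beside 11.5% of all tested genes higher and 3.15% lower, so that few would pass at that share. The median log2 difference was -0.072, with 6 genes on each side of 0, or 8 higher and 4 lower with upper-quartile scaling. As deposited, the interval lay wholly above no change for 3 genes and wholly below it for 5, beside 3416 and 3407 of all 12164 tested genes. Ptpn1, with the most control reads, is a tyrosine phosphatase gene with a fold change of 1.01 (0.967 to 1.05), and Usp8, a deubiquitinase gene of receptor sorting, had 1.15 (1.05 to 1.26). Errfi1, the feedback inhibitor of EGFR, named for that role, had 44 and 64 reads and a fold change of 1.43 with an interval of 0.966 to 2.17, which spans no change.

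Genes that respond to ERK, which many receptors besides the EGF family activate, went both ways. All 12 were tested. The interval lay wholly above no change for 5 and wholly below it for 3, beside 3416 and 3407 of all 12164 tested genes. Of the 12, 7 were on the higher side and 5 on the lower. With upper-quartile scaling, which raised the median of all tested genes to 0.24, the split was 10 to 2 and the median of the list 0.58. Past 2-fold, 4 were higher and none lower, beside 11.5% and 3.15% of all tested genes, and the median log2 difference was 0.36, beside 0.015. With 10 reads required in both libraries 3 of the 4 were left, without Fos. Ccnd1, which encodes cyclin D1, had 16 and 85 reads and a fold change of 5.01 (3.06 to 9.62). Etv5, an ETS-family transcription factor gene, had 19 and 83 reads and a fold change of 4.16 (2.60 to 7.54). Both changes exceeded 2-fold over the whole of their intervals. Ier3, an immediate-early gene, with 148 control and 317 TSA reads, had a fold change of 2.11 (1.74 to 2.60). Fos had 4 and 12 reads, and its interval of 0.900 to 12.6 included no change. The genes of the list with the most control reads were Myc, with a fold change of 0.883 (0.815 to 0.956), and Ier2, with 0.790 (0.724 to 0.8604). Egr1, Phlda1, Dusp6 and Etv4 were named after their values were seen. Egr1, with 1164 and 1231 reads, had a fold change of 1.05 (0.966 to 1.14), and Phlda1, the lowest of the list, had 0.759 (0.692 to 0.831). Dusp6, with 584 and 924 reads, had 1.57 (1.41 to 1.74), and Etv4, with 60 and 104, had 1.70 (1.24 to 2.40). Myc was on the higher side, at 0.045 on the log2 scale, with upper-quartile scaling.

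**Figure D3:**
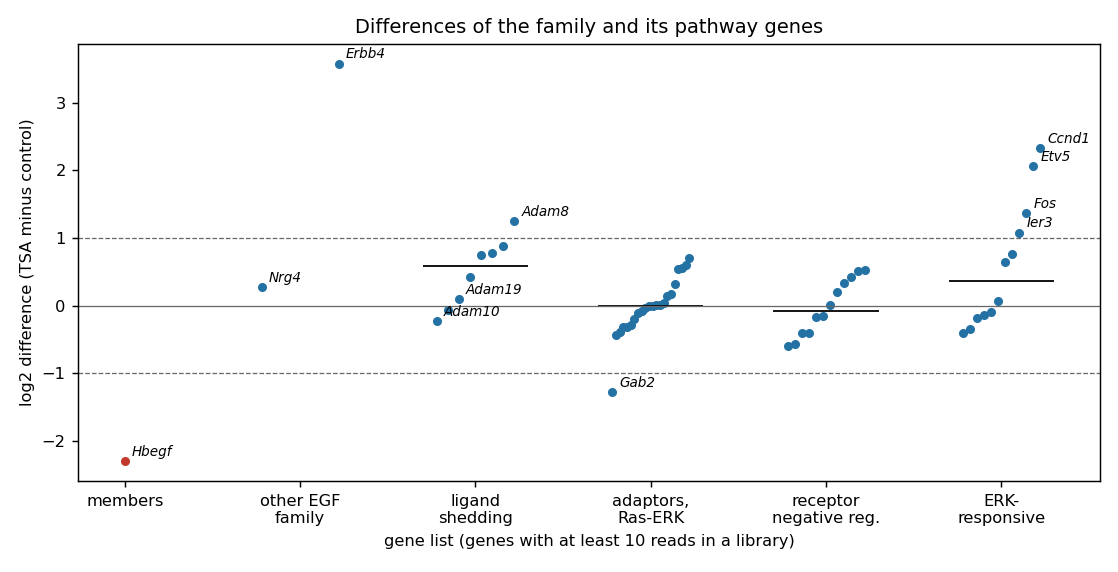
Log2 differences (TSA minus control) of the tested genes of each list, with horizontal bars at the median of lists with more than 2 tested genes and dashed lines at 2-fold. Hbegf at -2.30 is the lowest point of the plot, Gab2 is the other gene below the lower dashed line, and the ERK-responsive list reaches highest after Erbb4, with Ccnd1 and Etv5.

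The fall of Hbegf was also set beside its neighbours on the chromosome, the 3 nearest protein-coding genes on each side that the tables hold. Of these 6 genes, 4 were tested and none passed 2-fold, with log2 differences from -0.51 to 0.23. Among all tested genes 11.5% were higher and 3.15% lower past 2-fold, so that none among 4 says little. Ankhd1, at 44.2 kb, was the lowest, with 2009 and 1420 reads and a fold change of 0.7003 (0.654 to 0.7495). Pfdn1, at 50.4 kb on the other side, had a fold change of 0.828 (0.7697 to 0.8905), and Eif4ebp3, at 148.3 kb, of 0.816 (0.7013 to 0.946). Igip, at 203.4 kb, had a fold change of 1.17 with an interval of 0.901 to 1.53, which spans no change. Slc4a9, the closest at 12.3 kb, had no read in either library, and Cystm1 had 0 and 4. Each tested neighbour had an interval wholly above that of Hbegf.

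**Figure D4:**
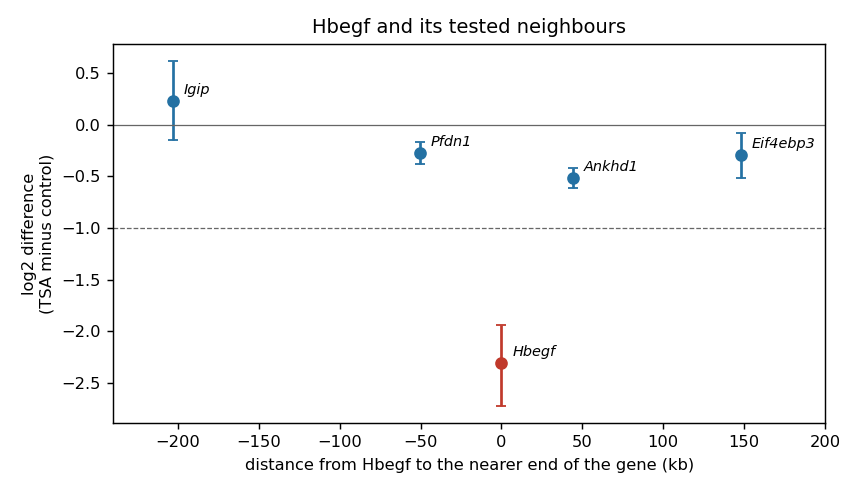
Log2 difference (TSA minus control) of Hbegf and its 4 tested neighbours against the distance in kb to the nearer end of each gene, with Clopper-Pearson 95% intervals; the dashed line marks 2-fold. The neighbours lie between -0.51 and 0.23, and Hbegf lies apart at -2.30.

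The genes whose pair of deposited values lay nearest to that of Hbegf were Lrrc32, Bub1 and Kif4, by straight-line distance over the 2 libraries, so that likeness here means a similar level and a similar difference and no more. Lrrc32, which encodes GARP, the protein that holds latent TGF-β on Treg cells, had 269 control and 68 TSA reads, a fold change of 0.253 (0.189 to 0.328) at a distance of 0.32. Bub1, a mitotic checkpoint kinase gene, had 252 and 84 reads, and Kif4, a gene of a mitotic kinesin, had 242 and 79, at distances of 0.51 and 0.52.

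Markers of the cells in culture were examined beside the fall of Hbegf. The 6 T cell genes (Cd3d, Cd3e, Cd3g, Cd4, Cd5 and Cd28) were all present, with 11689 control and 12388 TSA reads in sum and none past 2-fold. The 4 Treg cell genes Foxp3, Il2ra, Ctla4 and Ikzf4 were all lower with TSA as deposited, 12476 and 10192 reads in sum, with log2 differences from -0.77 to -0.19. Ctla4 lay above 0, at 0.038, with upper-quartile scaling. The part of this shift in the Hbegf result was not tested. Il10, which the paper names beside Foxp3 for Treg cells, is not among the 4 and was named after its values were seen. It went the other way, with 12 control and 51 TSA reads and a log2 difference of 1.99. Myeloid cells, which can express Hbegf strongly, are not among those the naïve CD4+ T cell isolation is meant to keep. Their 5 markers had 28 control and 25 TSA reads in sum. Of these, Csf1r had 9 and 2 reads and Adgre1 4 and 0, while Lyz2 had 6 and 10, Itgam 7 and 9 and Cd14 2 and 4. The part of such cells in the Hbegf result was not tested. Markers of mast cells and basophils, known sources of Areg, had 1 and 0 reads over 4 genes, with Cpa3, Mcpt8 and Fcer1a at 0 in both libraries. Over 4 genes of NK and innate lymphoid cells the sums were 23 and 31 reads, of which Il1rl1 gave 20 and 28, with Klrb1c at 0 in both. For epithelial cells, where the receptors are best known, 6 markers had 69 and 68 reads, of which Epcam gave 55 and 61, and Krt5 and Krt14 were at 0. The sums were 12 and 15 reads over 4 B cell genes, 80 and 87 over Cd8a and Cd8b1, and 10 and 27 over 3 fibroblast genes. Among the fibroblast genes Col1a1 went from 1 to 20 reads and Col1a2 from 9 to 0, in opposite directions.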

How the data were processed

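The authors prepared QuantSeq libraries from 500 ng of total RNA, sequenced single-end 75-nt reads and used ExDEGA. Bowtie2, bedtools and mm10 are named in the submitters' processing notes. Counting options, annotation and normalization are not given in the sources used here. The deposited values are log2 of a normalized count plus 1, to 3 decimals. Reads were recovered by dividing the back-transformed values by the step of low values (1.005 control, 0.995 TSA). Of values with 1 to 300 reads, 99.95% and 99.94% lay within 0.1 of a whole read. In the control library 1940 rows without reads held values up to 0.016 and were read as 0.

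Differences are TSA minus control as deposited, with a pseudocount of 1, which understates changes of genes with few reads. Rows of the 44 repeated symbols were kept apart. With 1 library per condition there is no p-value. Intervals are exact (Clopper-Pearson, 95%) on reads. Each member is named. In each list, genes past 2-fold and the 2 tested genes with most control reads are named, with the 3 rows nearest to any member of at least 50 reads. A gene that this rule covers is not reported here on its own. Genes beyond that rule were named for their role after their values were seen. Members and lists were chosen with earlier results of these data known. The steps were tested on simulated data. Alternatives covered scaling, pseudocount, filter and threshold. Computations ran in Python 3.11.15 with pandas 2.3.3, numpy 2.4.6, scipy 1.17.1 and matplotlib 3.10.9. No sequence is printed.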

Additional observations from a re-analysis of the deposited data

How the results depend on the processing

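No paired analysis was possible because each condition had a single library, which also left no replicate to omit. The log2 difference of Hbegf lay between -2.31 and -2.08 over 3 scalings and 2 pseudocounts, past 2-fold in each. Upper-quartile scaling moved the median of all tested genes from 0.015 to 0.24, so changes under it are relative to that shift. The other members had fewer than 10 reads under any setting, and Erbb3, with 0 and 6 reads, had a log2 difference from 1.13 to 3.69. Without a filter on low values 4 members passed 2-fold, with Btc, Egfr and Erbb3 added, and so did 2817 higher and 1200 lower genes and 3 shedding genes. With 10 reads required in both libraries 524 genes were higher and 223 lower, and with an average of 50 or more normalized counts these numbers were 278 and 141; under both filters 0 shedding and 0 adaptor genes passed, and likewise with a pseudocount of 5. At 1.5-fold 2279 genes were higher and 1014 lower, with 4 shedding genes, 3 adaptor genes and 1 negative regulator. With the whole interval beyond 2-fold these were 604 and 99, with 0 shedding, 0 adaptor and 2 ERK-responsive genes. Upper-quartile scaling gave 243 lower genes and 3 shedding genes. The filters and thresholds change how many genes can pass by construction; the cause of the other shifts was not tested. Of 110 values recomputed under an alternative, 84 stayed within their counting interval or within 1.5 times, and none changed a called direction. The 84 include those of the 7 members with fewer than 10 reads, whose wide intervals left them little room to move. Egfr, for example, ran from -3.17 to -0.85 and still counted as unmoved. This share therefore does not measure how stable the results are.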
